A study of Danio rerio with 16 samples.

Results

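The data described here are the liver transcriptomes of wild-type (WT) zebrafish after 8 weeks on a normal or an obesity diet, and they were chosen by the genotype in the labels: 4 of the 16 RNA-seq libraries of the series. WT fish were of the AB strain, 3 months old at the start of feeding, and carried none of the transgenes of the study. All fish received dry powdered feed each morning. Of the WT libraries, 2 came from the normal diet (NOR, a daily 0.5 ml of Artemia, which are brine shrimp), 1 from overfeeding (DIO, 3 daily meals of 2 ml, 12 times the NOR amount), and 1 from the high-fat diet (FAT, the NOR amount of Artemia plus 3 daily portions of 0.22 g high-fat fish food). The other 12 libraries came from p53 mutants in which the liver-specific fabp10a promoter drives HBx (HBx(p53-) fish), Src (Src(p53-) fish), or both (HBx,Src(p53-) fish). They entered here to estimate the spread and for comparison. Each library came from a single fish, whose sex the labels do not name. DIO and FAT differ from each other in diet as well as in fish, and each was sequenced in 1 WT fish.

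The liver takes up sugar through glucokinase, turns surplus carbon into fatty acids through acetyl-CoA and stearoyl-CoA desaturase, and packs the lipid into droplets or lipoproteins. In the fasting state it burns fatty acids in mitochondria and releases glucose through glucose-6-phosphatase. Hepatocytes also secrete most plasma proteins, which are folded and glycosylated in the endoplasmic reticulum (ER), and they export iron through ferroportin.

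Expression is given as FPKM, fragments counted per kilobase of a transcript and set relative to all mapped fragments, so levels of different genes can be compared. A difference is that of mean log2(FPKM + 1), a scale that understates changes of low genes. The FPKM of the WT libraries summed to between 855176 and 1034270, and 20375 to 22009 genes were above 0. The FPKM carry no read counts, so the number of reads behind a single value is unknown, and a gene at 0 is only listed at 0, as were 47 of the 4565 genes averaging 10 FPKM or more in WT in at least 1 WT library. The hepatocyte marker fabp10a, a liver fatty acid-binding protein, had 1628 and 958.1 FPKM in the NOR libraries 1 and 2, 1798 in DIO, and 1750 in FAT. Of the hepatocyte markers, 4 of 13 were matched by name, and their FPKM summed to between 3247 and 4666. Several lists of other cell types summed to much less. Exocrine pancreas had between 6.22 and 29.1 FPKM, endothelial cells 11.3 and 28.9, macrophages 17.3 and 43.7, and muscle at most 0.647. Higher sums came from the lists of red blood cells (between 715.3 and 1229 FPKM), biliary cells (422.3 and 841.6), intestine (106 and 997.4), and adipocytes (1041 and 3081). Nearly all of the adipocyte sum came from the gene lpla (1040 to 3080 FPKM), with 2 of 8 markers matched. The intestine sum came almost wholly from apoa4b.1 (105.3 to 996.7 FPKM), with 6 of 11 markers matched. Of the female liver markers, 0 of 9 were matched.

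The 2 NOR libraries stood far apart, which bears on every comparison below. Of the 4565 genes averaging 10 FPKM or more in WT, 1893 (41.5%) differed by 2-fold or more between them, 1302 lower and 591 higher in NOR library 1. The insulin-like growth factor-binding protein igfbp1a, a plasma protein that insulin represses in mammals, had 7265 FPKM in NOR library 1 and 55.0 in NOR library 2, with 90 in DIO and 60.6 in FAT. The glucose-6-phosphatase gene g6pc1a.2 had 6010, 558.4, 762.4, and 2229 FPKM in the same order of libraries. Tryptophan dioxygenase tdo2b, which opens the tryptophan ring, had 347.9, 3.30, 9.92, and 73.7 FPKM. In all of these, NOR library 1 was the highest of the WT libraries. The proteasome showed the other direction. Of its 21 subunit genes averaging 10 FPKM or more, 19 were lowest in NOR library 1 (1746 of 4565 genes in all, 38.2%), and psmd1 had 32.2, 102.9, 45.2, and 100.9 FPKM. None of these 21 genes separated the obesity libraries from both NOR libraries.

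**Figure D1:**
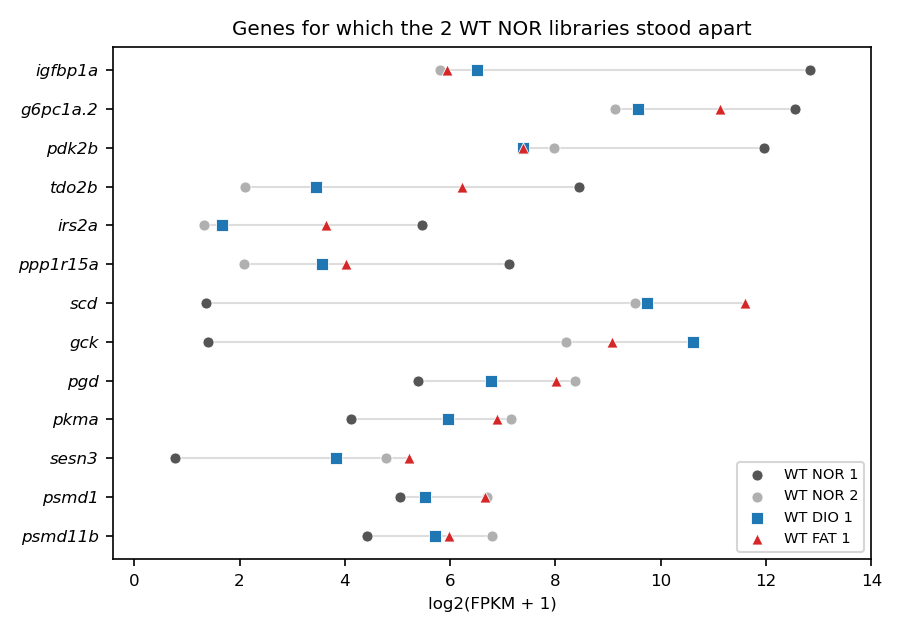
Each point is the log2(FPKM + 1) of a gene in 1 of the 4 WT libraries, for genes chosen after their values were seen because the NOR libraries differed. NOR library 1 is the highest library for igfbp1a, g6pc1a.2, pdk2b, tdo2b, irs2a, and ppp1r15a, and the lowest for the others, while NOR library 2 lies near the obesity libraries for most.

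The question of the comparison was which genes differ in WT liver between both obesity diets and the normal diet. With limma and Benjamini-Hochberg adjustment over 33727 genes, 24 genes (0.0712%) passed an adjusted p of 0.05, 8 higher (0.0237%) and 16 lower (0.0474%) on the obesity diets. Of the 33727 genes, 1490 had an unadjusted p under 0.05. Where no gene differs, a share of 0.05 of the genes is expected below such a p. The fit held DIO and FAT of a genotype as 1 group, so its spread and standard errors include the difference between these diets. Of the 24, 23 had a mean under 1 FPKM over the 16 libraries. The other was the assembled gene MSTRG.22268, whose RefSeq symbol is a clone name without a described function. Its FPKM was 4.61 and 4.08 in the NOR libraries, 28.7 in DIO, and 24.9 in FAT. It was the 1 call (0.0219%) among the 4565 genes averaging 10 FPKM or more in WT. With NOR values under 10 FPKM, it reached this mean only through the obesity libraries, in which it was high. Both obesity libraries lay far above both NOR libraries, and the gene rose, with a log2 difference of 2.38 (standard error 0.30) and an adjusted p of 0.0177 from limma. The fit of genes averaging 1 FPKM or more gave it an adjusted p of 0.529 and called 0 of 12319 genes, with 421 at an unadjusted p under 0.05. Its adjusted p from limma was 0.102 after quantile normalization and 0.19 in the fit of genes averaging 10 FPKM or more. The fit of the WT libraries alone called 0 genes. Over the settings that kept every WT library and held DIO and FAT as 1 group, calls ranged from 0 to 43. Without the NOR library 1 there were 661, without NOR library 2 there were 642, without DIO 798, and without FAT 432. Each of these fits leaves a WT group with 1 library, which is assumed to vary like the other groups.

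Since few genes passed the test, genes were also described by separation: both obesity libraries above, or both below, both NOR libraries. With 2 libraries on each side, the smallest p of an exact permutation test is 0.333, so these counts carry no test. Among the 4565 genes averaging 10 FPKM or more, 537 (11.8%) were higher and 490 (10.7%) lower without overlap. With a mean difference of at least 2-fold as well, 186 (4.07%) were higher and 104 (2.28%) lower. Without a library fewer values have to separate, and the higher genes then numbered 424 without NOR library 1, 749 without NOR library 2, 688 without DIO, and 227 without FAT. The lower genes numbered 559, 375, 345, and 406 in the same order. The difference over all 4565 genes had a median of 0.02, and it was 0.13 after scaling each library to a common sum.

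Among named genes that separated the diets, scd, gck, and slc40a1 had the largest differences above NOR. Ferroportin slc40a1, the iron exporter of cells, had 25.1 and 27.9 FPKM in the NOR libraries, 339.4 in DIO, and 1016 in FAT. Its NOR values were close together and far below both obesity libraries, a difference of 4.42 (standard error 1.04, adjusted p = 0.475 from limma) that stayed between 3.63 and 5.21 with each WT library left out. Stearoyl-CoA desaturase scd, which makes monounsaturated fatty acids, had 1.57 and 727.8 FPKM on NOR, 851.6 in DIO, and 3087 in FAT. Here NOR library 1 decided the size. The difference was 5.23 (standard error 2.54) with both NOR libraries, 1.16 without NOR library 1, and 9.30 without NOR library 2. Glucokinase gck, which traps glucose in the hepatocyte, had 1.64 and 292.9 FPKM on NOR, 1559 in DIO, and 539.7 in FAT. It followed the same pattern, with a difference of 5.04 (standard error 2.96) that was 1.64 without NOR library 1. Both scd and gck had an adjusted p of 1 from limma.

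The other named genes with the largest differences above NOR served varied functions. The aldolase aldoab, a glycolytic enzyme, was listed at 0 in both NOR libraries and had 0.258 FPKM in DIO and 70.7 in FAT. The gene thfp5 was likewise listed at 0 on NOR, with 51.5 FPKM in DIO and 0.704 in FAT. For both genes, a single library thus carried the difference. In HBx(p53-) fish, aldoab had 0.446 and 107.9 FPKM on NOR, 0.305 in DIO, and was listed at 0 in FAT. There, thfp5 had 0.830, 20.4, 9.18, and 8.15 FPKM in the same order. The fatty acid-binding protein fabp7a had 6.96 and 55.2 FPKM on NOR, 59 in DIO, and 159.8 in FAT. For this gene DIO exceeded NOR library 2 only narrowly. The autophagy gene wdr45 had 9.36 and 6.15 FPKM on NOR, 37.7 in DIO, and 46.5 in FAT. The gene vps37ba, a subunit of the ESCRT-I sorting complex, had 1.51 and 3.92 FPKM on NOR, 10.6 in DIO, and 24.3 in FAT. For ppdpfb the values were 72.3, 8.48, 130.4, and 155.2 FPKM, and for zgc:162200 they were 2.18, 7.66, 13.7, and 36.7. The transcription factor sox4b reached 45.1 FPKM in FAT alone, against 2.16 and 1.63 on NOR and 3.67 in DIO. The genes aldoab, sox4b, vps37ba, and zgc:162200 reached a WT mean of 10 FPKM only with their FAT value. For thfp5 the same held for its DIO value, and wdr45 was under 10 FPKM in both NOR libraries. The genes listed thus partly follow from the filter.

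Of the 12 named genes with the largest differences below NOR, several are described here by their values. The mitochondrial pyrimidine nucleotide carrier slc25a33 had 545.5 and 164.5 FPKM on NOR, 85.6 in DIO, and 9.70 in FAT. Its difference of -3.30 (standard error 1.69, adjusted p = 1 from limma) ranged from -4.81 to -1.80 with each WT library left out. Methionine adenosyltransferase mat2aa, which makes S-adenosylmethionine, had 661.1 and 712.6 FPKM on NOR, 261.1 in DIO, and 145.7 in FAT. As for slc40a1, the NOR libraries were close together, and the difference of -1.81 (standard error 0.81) was -1.86 and -1.75 without NOR library 1 and 2. Pyruvate dehydrogenase kinase pdk2b, which holds back glucose oxidation, had 3964 and 249.2 FPKM on NOR, 166.3 in DIO, and 167.1 in FAT. Its difference of -2.57 was -0.58 without NOR library 1. The sulfate donor synthase papss2a had 588.3 and 131.8 FPKM on NOR, 82.8 in DIO, and 94.1 in FAT, and the purine nucleoside phosphorylase pnp5a had 3795, 680.2, 522.9, and 222.1.

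Several of the lower genes had their lowest level in FAT by far. Mitochondrial arginase arg2, which cleaves arginine, had 51.9 and 29.0 FPKM on NOR, 18.3 in DIO, and 4.40 in FAT. The transcription factor klf15, known in mammals for its role in gluconeogenesis and amino acid breakdown, had 110.3 and 34.7 FPKM on NOR, 31.1 in DIO, and 9.0 in FAT. The factor gtf3aa, needed for 5S ribosomal RNA transcription, had 30.7 and 32.6 FPKM on NOR, 18.1 in DIO, and 3.87 in FAT. The pseudouridine synthase pus1, which modifies RNA, had 19.9, 19.5, 16, and 1.13 FPKM. The remaining genes of this set were si:ch73-141c7.1, zgc:153115, and pho, whose FAT values were 6.71, 3.08, and 5.57 FPKM against at least 20.5 in any NOR library. Their DIO values were 29.05, 12.4, and 10.9 FPKM. For si:ch73-141c7.1, DIO was only narrowly below NOR library 2 (29.49 FPKM), while NOR library 1 had 360.6. None of the lower named genes passed the test.

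**Figure D2:**
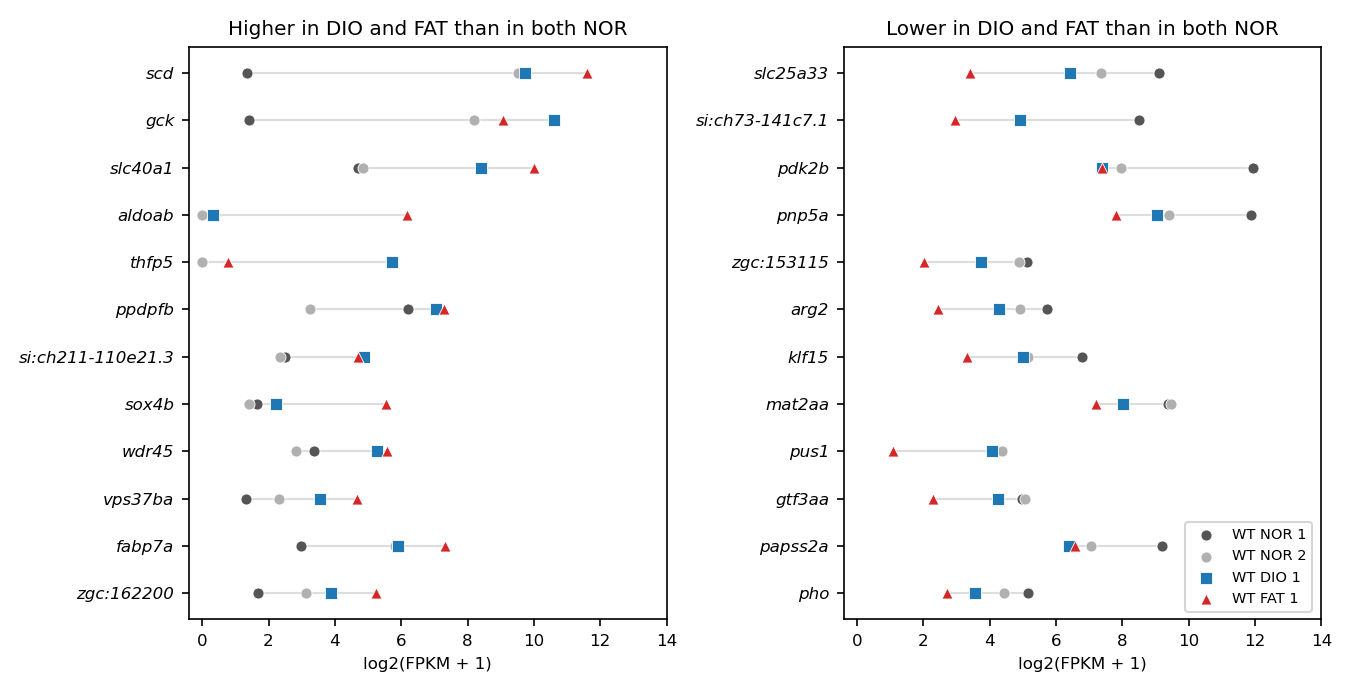
Log2(FPKM + 1) in each WT library of the 12 named genes with the largest mean difference in each direction, among genes averaging 10 FPKM or more and no overlap between diets. The NOR points of slc40a1 and mat2aa lie together, while those of scd, gck, and pdk2b lie far apart, with NOR library 2 next to the obesity libraries. MSTRG.22268 is drawn under its RefSeq symbol.

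Each diet was then set against NOR on its own, with 1 library assumed to vary like the other groups. These fits held DIO and FAT as separate groups, so their spread left out the difference between these diets. Their counts therefore cannot be set beside those of the obesity comparison above. That comparison also called more genes when its fit held the diets apart. DIO called 417 genes (1.24%), 377 higher (1.12%) and 40 lower (0.119%), and FAT called 761 (2.26%), 730 higher (2.16%) and 31 lower (0.0919%). Among the 4565 genes averaging 10 FPKM or more in WT, named or not, DIO called 5 higher (0.11%) and 1 lower (0.0219%), and FAT called 8 higher (0.175%) and 2 lower (0.0438%). Genes averaging under 1 FPKM made up 397 and 741 of these calls. When genes averaging 1 FPKM or more were fitted alone, 3 genes were called in DIO and 6 in FAT. Without NOR library 1, DIO called 1218 genes and FAT 1759, and without NOR library 2 they called 1322 and 1632. Both comparisons share the NOR libraries. Among genes averaging 10 FPKM or more in WT, 282 were at least 2-fold higher and 457 lower in DIO, while 755 were higher and 371 lower in FAT. The median difference over these genes was -0.12 in DIO and 0.26 in FAT. After scaling to a common sum, the DIO median was 0.08, on the other side of 0, and that of FAT was 0.27.

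The named genes averaging 10 FPKM or more in WT that the test called for a single diet are given here, chosen after their values were seen. Each p rests on the spread of other groups, since the diet has 1 library. In DIO, ginm1 rose from 16.2 and 16.6 FPKM on NOR to 61.8 (difference 1.85, standard error 0.27, adjusted p = 0.0352 from limma), and FAT had 26.5. The gene ssr4, a subunit of the complex that assists protein entry into the ER, fell from 270.3 and 326.3 FPKM on NOR to 97.9 in DIO (difference -1.59, standard error 0.23, adjusted p = 0.0334 from limma). The call for ssr4 was lost after scaling to a common sum (adjusted p = 0.192). In FAT, adenylate kinase ak4, a mitochondrial enzyme of nucleotide balance, rose from 10.6 and 10.9 FPKM to 41.9 (difference 1.87, standard error 0.24, adjusted p = 0.0107 from limma). The first enzyme of heme synthesis in liver, alas1, rose in FAT from 198.8 and 141.5 FPKM to 1186 (difference 2.82, standard error 0.46, adjusted p = 0.0372 from limma), while DIO had 38.4. Without NOR library 2, the adjusted p of alas1 was 0.0843. The gene zgc:171534 was listed at 0 in both NOR libraries and in DIO and had 45.9 FPKM in FAT (adjusted p = 0.00011 from limma). It reached a WT mean of 10 FPKM through the FAT library alone, so its call describes 1 library. Of the single-diet calls given here, those of ginm1, ssr4, ak4, and alas1 were lost in the fit of genes averaging 1 FPKM or more (adjusted p between 0.48 and 0.893), and that of zgc:171534 was not (adjusted p = 0.00844). The gene MSTRG.22268 was called in DIO and in FAT as well (adjusted p = 0.0227 and 0.0189). In the fit of genes averaging 1 FPKM or more these were 0.481 and 0.606. After scaling to a common sum they were 0.0392 and 0.0519, and after quantile normalization 0.0874 and 0.196. The adjusted p of ak4 in FAT was 0.191 after quantile normalization.

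FAT and DIO were also compared with each other, 1 library against 1. The difference itself does not use the NOR libraries, but its spread comes from all groups with 2 libraries, the NOR pair of WT fish among them. The test called 1070 genes (3.17%), 707 higher (2.1%) and 363 lower (1.08%) in FAT, of which 1021 had a mean under 1 FPKM, and 5 were called when genes averaging 1 FPKM or more were fitted alone. Without NOR library 1 there were 1526 calls, and without NOR library 2 there were 1537. Of genes averaging 10 FPKM or more in WT, 16 were called higher (0.35%) and 5 lower (0.11%). By order of the libraries, 614 (13.5%) lay above both NOR libraries in FAT and below both in DIO, and 135 (2.96%) did the reverse. Without NOR library 1, these were 1187 and 325, and without NOR library 2 they were 1058 and 448. The balance moved with the scaling, at 432 and 207 after scaling to a common sum and at 408 and 323 after quantile normalization. The median of FAT minus DIO over all 4565 genes was 0.33, and 0.14 after scaling to a common sum.

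Of the 21 genes called at this level, 10 have a symbol, and only these are described. Of the 10 named genes averaging 10 FPKM or more in WT that were called, 9 were higher and 1 was lower in FAT. The ER chaperone hsp90b1 had 733.7 and 381.3 FPKM on NOR, 103.0 in DIO, and 1818 in FAT (FAT minus DIO 4.13, standard error 0.68, adjusted p = 0.0299 from limma). The diets lay on opposite sides of NOR. The catalytic subunit of the oligosaccharyltransferase, stt3a, had 553.9 and 426.8 FPKM on NOR, 256.2 in DIO, and 1106 in FAT (adjusted p = 0.0124 from limma). Its partner subunit rpn1 had 672.3, 801.4, 425.6, and 1288 FPKM in the same order (adjusted p = 0.029 from limma). The ER channel subunit sec61b had 187.1, 218.0, 97.4, and 243.8 FPKM (adjusted p = 0.0468 from limma). For ssr4 the adjusted p was 0.0346 from limma, with 284.4 FPKM in FAT, between the NOR libraries. In hsp90b1, stt3a, rpn1, sec61b, and ssr4, DIO was the lowest of the WT libraries. After scaling to a common sum, the adjusted p was 0.0591 for hsp90b1, 0.0566 for stt3a, 0.155 for rpn1, 0.203 for sec61b, and 0.179 for ssr4.

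For alas1, FAT exceeded DIO by 4.91 (standard error 0.53, adjusted p = 0.00391 from limma), and for the dehydrogenase dhrs11b.2, with 343.7 and 114.6 FPKM on NOR, 32.1 in DIO, and 1429 in FAT, by 5.43 (standard error 0.95, adjusted p = 0.0377 from limma). The call of alas1 held after both other scalings (adjusted p = 0.00204 and 0.00261). The gene ak4 had an adjusted p of 0.0356, which was 0.181 after scaling to a common sum, and zgc:171534 one of 0.000175. In Src(p53-) fish, zgc:171534 had 33.0 and 45.9 FPKM on NOR, 25.2 in DIO, and 44.5 in FAT, while it was at most 0.0524 in HBx(p53-) fish and listed at 0 in HBx,Src(p53-) fish. Carboxypeptidase N subunit cpn1, a plasma enzyme, was the gene lower in FAT, with 67.1 and 60.2 FPKM on NOR, 94.8 in DIO, and 22.7 in FAT (FAT minus DIO -2.01, standard error 0.34, adjusted p = 0.033 from limma). It kept an adjusted p of 0.00792 after scaling to a common sum and 0.0194 after quantile normalization. In the fit of genes averaging 1 FPKM or more, 1 of the 10 calls held, that of zgc:171534, and alas1 had an adjusted p of 0.0525.

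**Figure D3:**
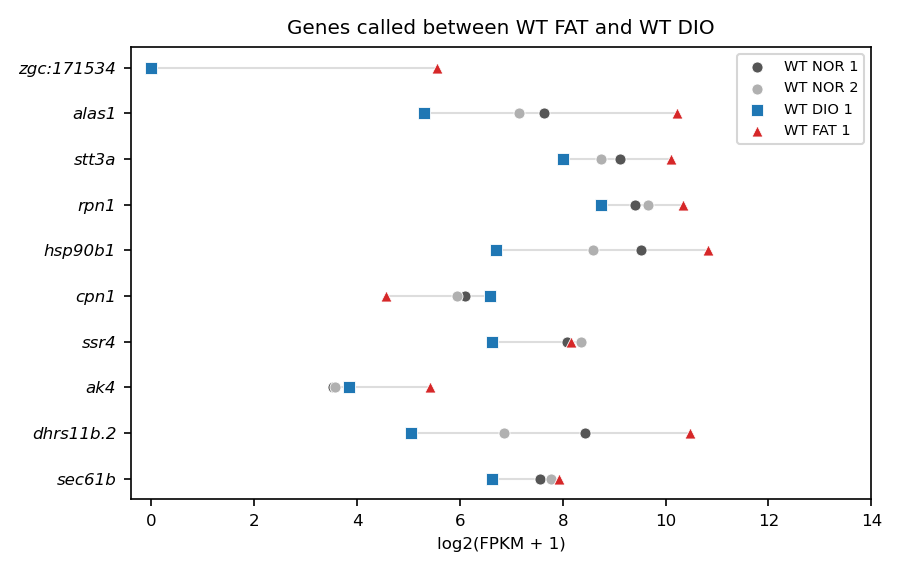
Log2(FPKM + 1) in each WT library of the 10 named genes averaging 10 FPKM or more that limma called between FAT and DIO. For hsp90b1, stt3a, rpn1, sec61b, alas1, and dhrs11b.2, DIO is the lowest and FAT the highest library, with both NOR libraries between them, and for zgc:171534 the points of NOR and DIO coincide at 0.

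Among the named genes with the largest opposite differences, pdia4, a disulfide isomerase of the ER, had 60.8 and 26.2 FPKM on NOR, 3.10 in DIO, and 143 in FAT (adjusted p = 0.438 for FAT against DIO from limma). The transporter gene mfsd4aa had 0.258 and 1.65 FPKM on NOR, was listed at 0 in DIO, and had 82.6 in FAT. The genes prlhr2b and ubald2 were also listed at 0 in DIO, with 31.6 and 25.9 FPKM in FAT. None of these 4 genes passed the test, and mfsd4aa, prlhr2b, and ubald2 reached a WT mean of 10 FPKM only with their FAT value. In the other direction, dio3b, a deiodinase that inactivates thyroid hormone, had 6.74 and 0.476 FPKM on NOR, 126.6 in DIO, and was listed at 0 in FAT (adjusted p = 0.0969 from limma). The activin subunit inhbab had 4.70 and 23.5 FPKM on NOR, 82.3 in DIO, and was likewise listed at 0 in FAT. Ornithine decarboxylase odc1, the first enzyme of polyamine synthesis, had 37.5 and 160.6 FPKM on NOR, 196.1 in DIO, and 6.43 in FAT. The intelectin gene itln3 had 66.8 FPKM in DIO against 4.09 to 13.1 in the other WT libraries, and lnx2a had 47.6 in DIO and 0.632 in FAT. The gene cbln11 had 8.04 and 11 FPKM on NOR, 85.7 in DIO, and 5.68 in FAT. Like dio3b, inhbab, and itln3, it reached a WT mean of 10 FPKM only with its high DIO value, so its test describes 1 library. Its adjusted p was 0.0642, and it passed after scaling to a common sum (adjusted p = 0.0177) and after quantile normalization (adjusted p = 0.00844).

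Gene lists were described by counts and medians over members averaging 10 FPKM or more. In the obesity comparison, 0 members of the pathway lists passed the test of limma (24 of 33727 genes in all). For ER protein folding, 35 of 48 genes were matched, 26 of them such members. DIO lay below both NOR libraries in 22 of these (1496 of 4565 genes, 32.8%). FAT lay above both in 14 (38.9% of all genes), and both held in 13 (13.5%). The list's median was -1.05 in DIO and 0.22 in FAT, against -0.12 and 0.26 over all genes. After scaling to a common sum, these were -0.84 and 0.24. Of the 26 members, sec11a reached a WT mean of 10 FPKM only with its FAT value (18.9 FPKM, against 3.40 in DIO). For FAT minus DIO, 3 members were called, all higher in FAT (0.35% of all 4565 genes were called higher), and 0 of these calls held after scaling to a common sum. After quantile normalization, the call of hsp90b1 held, and those of sec61b and ssr4 did not. Besides the genes named above, p4hb, a disulfide isomerase, had 388.7 and 383.2 FPKM on NOR, 156.4 in DIO, and 449.7 in FAT. The lectin chaperone canx had 155.1, 305.2, 96.9, and 384.0 FPKM. Other members did not share this order. The main Hsp70 chaperone of the ER, hspa5, had 91.8 and 251.5 FPKM on NOR and was below both in DIO (73.6) and in FAT (60.0), and the transcription factor xbp1 had 492.0, 1493, 1760, and 394.6 FPKM, highest in DIO and lowest in FAT.

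Markers of the exocrine pancreas were highest in FAT. The list, digestive enzymes such as the trypsinogen prss1, summed to 9.96 and 6.40 FPKM on NOR, 6.22 in DIO, and 29.1 in FAT. Of its 22 genes, 14 were matched, none had a WT mean of 10 FPKM, and cpa4 and cel.2 were listed at 0 in every WT library. Endocrine pancreas markers summed to 4.101 and 0.0672 FPKM on NOR, 2.19 in DIO, and 0.549 in FAT, highest in NOR library 1. The part of pancreatic RNA in the ER result was not tested. In bulk liver, a different number of cells of a type and a different amount of RNA per cell cannot be told apart.

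**Figure D4:**
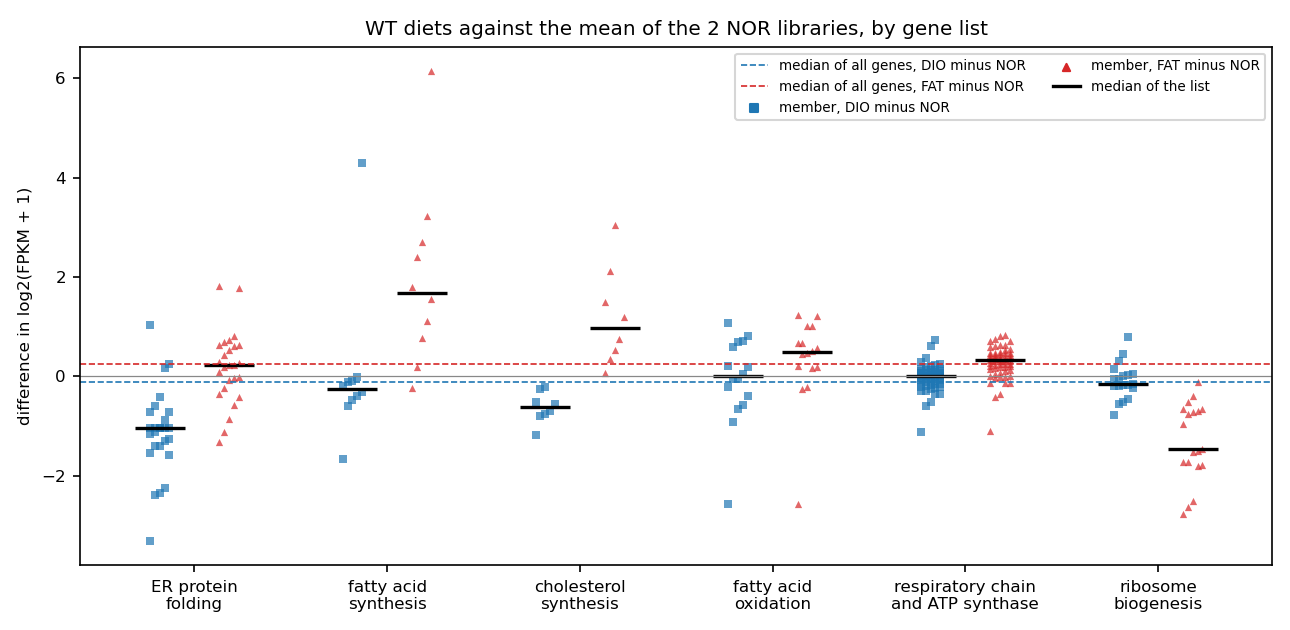
Each point is a member gene of a list averaging 10 FPKM or more, as the difference in log2(FPKM + 1) between DIO (squares) or FAT (triangles) and the mean of the NOR libraries. Black bars are list medians and dashed lines the medians over all 4565 genes: the ER folding list lies lower in DIO (-1.05), the ribosome biogenesis list lower in FAT (-1.46), and the fatty acid synthesis list higher in FAT (1.68).

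Most matched genes of fatty acid and cholesterol synthesis had higher levels in FAT than in DIO. For fatty acid synthesis, 19 of 33 genes were matched. Of these, 10 averaged 10 FPKM or more, and FAT exceeded DIO in 10 of 10 (2935 of 4565 genes, 64.3%). FAT lay above both NOR libraries in 7 (1777 of 4565 genes, 38.9%). Among the matched genes below this mean, hsd17b12a and elovl6l were lower in FAT than in DIO (-3.91 and -0.66) and the others higher. The list's median was 1.68 in FAT and -0.26 in DIO. ATP citrate lyase aclya, which supplies acetyl-CoA, had 68.3 and 133.8 FPKM on NOR, 29.6 in DIO, and 632.7 in FAT. The elongase elovl6 had 2.89, 10.7, 4.16, and 62.0 FPKM, and the desaturase fads2 had 382.4, 190.8, 250.9, and 943.3. In each, FAT was the highest WT library. For cholesterol synthesis, 16 of 30 genes were matched, and 8 of these averaged 10 FPKM or more. FAT exceeded DIO in 8 of these 8, with medians of 0.97 in FAT and -0.62 in DIO. Among the matched genes below this mean, mvda and lbr were lower in FAT than in DIO (-0.27 and -0.25) and the others higher. The genes elovl6, msmo1, acat2, and tm7sf2 reached a WT mean of 10 FPKM only with their high FAT value. For fdft1, with 2.60 and 18.4 FPKM on NOR, 3.96 in DIO, and 18.1 in FAT, the FAT value was needed as well. The counts of both lists thus partly follow from the filter. The regulator srebf2 had 320.2 and 291.3 FPKM on NOR, 207.0 in DIO, and 512.0 in FAT, and the sterol methyl oxidase msmo1 had 5.13, 11.7, 5.20, and 71.4. No member of either list passed the test. Among lipid carriers, apoa4b.1 had 342.3 and 190.3 FPKM on NOR, 105.3 in DIO, and 996.7 in FAT, and fabp3 had 449.4 and 435.7 on NOR, 504.4 in DIO, and 900.5 in FAT.

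In the fatty acid oxidation list, the separated genes were higher on both obesity diets, apart from pdk2b. Of its 44 genes, 20 were matched, and 16 averaged 10 FPKM or more. Of these 16 members, 6 were above and 1 was below NOR on both obesity diets without overlap (11.8% and 10.7% of all genes). The member below was pdk2b, whose enzyme acts on pyruvate dehydrogenase and does not oxidize fatty acids. Medium-chain acyl-CoA dehydrogenase acadm had 639.3 and 490.2 FPKM on NOR, 905.3 in DIO, and 1130 in FAT (difference 0.85, adjusted p = 1 from limma). The electron carrier dehydrogenase etfdh had 15.7, 10.8, 20.04, and 31.6 FPKM. In both genes FAT was highest and DIO second. For acadvl the values were 98.0, 49.3, 147.9, and 100.1 FPKM, and for hadhb they were 98.3, 72.7, 149.1, and 98.6. In acadvl and hadhb, FAT exceeded NOR library 1 only narrowly. The list's median was 0.49 in FAT, and in DIO it was -0.001, or 0.20 after scaling to a common sum.

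Ribosome biogenesis genes had their lower levels in FAT. Of the 56 genes of the list, 32 were matched. All 19 members averaging 10 FPKM or more were lower in FAT than in DIO (35.6% of all genes were). In FAT, 15 lay below both NOR libraries (981 of 4565 genes, 21.5%). The list's median was -1.46 in FAT and -0.15 in DIO, and the DIO median was 0.05 after scaling to a common sum. The pseudouridine synthase dkc1, which modifies ribosomal RNA, had 142.3 and 266.6 FPKM on NOR, 196.3 in DIO, and 30.7 in FAT. The RNA acetyltransferase nat10 had 27.3, 49.8, 33.2, and 4.58 FPKM. The ribosomal RNA methyltransferase fbl had 68.2, 122.8, 66.3, and 31.4 FPKM, and emg1, needed for the small subunit, had 23.8, 37.8, 17.0, and 8.07. None passed the test. Of the 19 members, those with the smallest gap between the diets were utp18, with 17.1 FPKM in DIO and 15.97 in FAT, and tbl3, with 126.8 and 112.0. Among the matched genes averaging under 10 FPKM, rpf2 was higher in FAT than in DIO (0.22) and the others lower.

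The counts of the remaining lists stand against 11.8% of all 4565 genes higher and 10.7% lower without overlap. Matched by name were 32 of 58 genes for glycolysis and gluconeogenesis, 35 of 59 for the insulin pathway, and 66 of 83 for the respiratory chain. For hypoxia 16 of 38 were matched, and for acute phase and complement 20 of 66. In glycolysis and gluconeogenesis, 3 of 18 members were higher (gck, aldoab, and eno1a) and 2 were lower on both diets, among them the lactate dehydrogenase ldhba with 41.5 and 74.5 FPKM on NOR, 36.4 in DIO, and 35.4 in FAT. Enolase eno1a had 4.82 and 35.5 FPKM on NOR, 49.3 in DIO, and 40.2 in FAT. In the insulin pathway, 1 of 21 was higher, the insulin receptor insrb with 14.2 and 2.84 FPKM on NOR, 25.8 in DIO, and 21.3 in FAT, and 1 was lower, the growth factor igf1. In the respiratory chain, 10 of 59 were higher and 2 lower, with a median of 0.13. In the hypoxia list, 2 of 7 were higher and 0 lower, while its median was -0.04 for both diets together and -0.33 in FAT. The higher genes were ndrg1a, with 17.98 and 80.6 FPKM on NOR, 99.7 in DIO, and 190.5 in FAT, and vhl with 13.7, 6.29, 19.98, and 28.5. Both were higher on either obesity diet than on NOR. Of the acute phase and complement genes, 3 of 13 were higher and 0 lower, with complement c3a.1 at 214.8 and 100.2 FPKM on NOR, 294.8 in DIO, and 219.4 in FAT. In iron and heme handling, ferritin fth1a had 48.7 and 44.8 FPKM on NOR, 54.0 in DIO, and 102.1 in FAT, and the heme oxygenase hmox1a had 0.630, 53.4, 149.6, and 0.729. Red blood cell markers summed to 715.3 and 875.1 FPKM on NOR, 1229 in DIO, and 889.2 in FAT, with the erythroid alas2 at 6.01, 8.596, 5.91, and 16.6. Their part in the heme and iron values was not tested.

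Of the genes that the study followed by qPCR or named from its scores, 28 of 38 were matched, 21 had a WT mean of at least 10 FPKM, and 0 were called in the obesity comparison. Of the 21, 5 were higher and 1 was lower on both diets without overlap, and since the study chose these genes on its own fish, the count is no independent evidence. Those not given above overlapped or opposed each other. The lipogenic regulator pparg had 11.04 and 10.6 FPKM on NOR, 9.56 in DIO, and 35.7 in FAT. The acyltransferase agpat2, which builds triglyceride precursors, had 36.5 and 187.9 FPKM on NOR, 75.2 in DIO, and 83.2 in FAT, inside the NOR range. The acetyl-CoA acetyltransferase acat2 had 2.61, 16.6, 3.58, and 33.6 FPKM, and aldh7a1 had 143.8, 227.6, 141.7, and 375.1. For both, FAT was highest of the WT libraries and DIO lay near or below the lower NOR library. The suppressor of cytokine signaling socs3b had 14.95 and 43.7 FPKM on NOR, 123.1 in DIO, and 39.2 in FAT. The cell cycle genes ccne1, cdk1, and cdk2 were at most 1.48 FPKM in any WT library.

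The WT diet effect was compared directly with the mean diet effect of the 3 transgenic types. Limma called 16 genes (0.0474%), 5 higher (0.0148%) and 11 lower (0.0326%), all with a mean under 1 FPKM and none with a symbol. At an unadjusted p under 0.05 there were 1359 of 33727. Without a WT library there were between 375 and 765 calls. For slc40a1, the obesity minus NOR difference was 4.42 in WT. It was -0.42 in Src(p53-), 2.00 in HBx(p53-), and 1.00 with both transgenes. In HBx(p53-) fish the NOR libraries had 35.3 and 564.4 FPKM, DIO 749.1, and FAT 440.3. The WT effect exceeded the mean of the others by 3.56 (standard error 1.196, adjusted p = 0.934 from limma), so the difference did not pass the test. For MSTRG.22268, the differences were 2.38 in WT, -0.86 in Src(p53-), 0.65 in HBx(p53-), and 1.38 with both transgenes, and the adjusted p for WT against the others was 0.17.

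FAT and DIO were also both sequenced in HBx(p53-) and Src(p53-) fish, 1 library each, which share no library with WT. Of the 26 ER folding genes, FAT exceeded DIO in 23 in WT (64.3% of all 4565 genes). The count was 16 for Src(p53-) (48.5%) and 17 for HBx(p53-) fish (29.1%). The list's medians were 1.24, 0.34, and 0.31 in this order, against 0.33, -0.02, and -0.40 over all genes. For pdia4, DIO and FAT had 11.06 and 26.5 FPKM in HBx(p53-) and 5.62 and 24.8 in Src(p53-). For this gene, FAT was thus the higher of both diets in each kind of fish. The list members called in WT did not all keep this order. In Src(p53-), DIO and FAT had 517.3 and 276.5 FPKM for hsp90b1, 154.8 and 114.3 for sec61b, and 130.9 and 88.0 for ssr4. In HBx(p53-) they had 265.7 and 915.3 for hsp90b1, 138.9 and 137.0 for sec61b, and 93.9 and 151.6 for ssr4. Of the 19 ribosome biogenesis genes, FAT was below DIO in 19 in WT (35.6%). The count was 18 for Src(p53-) (51.1%) and 18 for HBx(p53-) fish (70.6%), with medians of -1.05, -0.47, and -0.96 in this order. The respiratory chain did not keep its direction. FAT exceeded DIO in 53 of 59 genes in WT (64.3% of all genes), but in 7 for Src(p53-) (48.5%) and 1 for HBx(p53-) fish (29.1%). The list's medians were 0.29, -0.31, and -0.76 in this order, so the WT median lay near that of all genes (0.33). The gene alas1 did not keep its direction either, with 84.9 FPKM in DIO and 146.4 in FAT in HBx(p53-), and 173.7 and 104.8 in Src(p53-). These differences between kinds of fish were not tested.

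**Figure D5:**
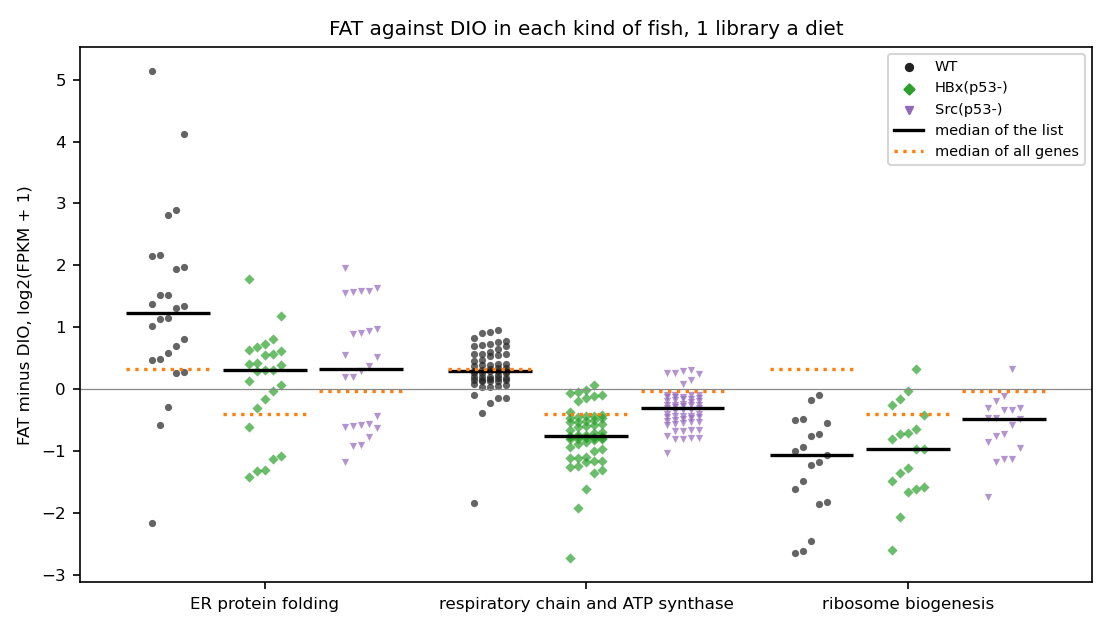
FAT minus DIO in log2(FPKM + 1) for the members of 3 lists in WT fish and in the transgenic types that had both diets, with 1 library per diet in each. Black bars are list medians and dotted bars the medians over all 4565 genes: ribosome biogenesis lies below its dotted bar in each kind of fish, ER folding above it, and the respiratory chain only near it or below.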

How the data were processed

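Livers of zebrafish were sequenced by the authors (Illumina HiSeq, 150 bp paired-end reads). Per the submitters' processing notes and the study's methods, reads were aligned to GRCz10 (danRer10) with HISAT2 2.1.0, assembled with StringTie 1.3.4d, and summarised with Ballgown as FPKM. The authors deposited FPKM in 1 table of 35885 entries for all 16 libraries, and these were used as deposited. Names came from 12235 RefSeq transcript names, of which 11763 were matched to symbols of GRCz12tu (names only), and 4072 identifiers were symbols already. Entries with a shared symbol were added together (13 fewer), leaving 35872 genes, 11957 of them named. FPKM merges reads of near-identical paralogs in a way not given in the sources used here.

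Values were log2(FPKM + 1), tested with limma 3.58.1 (lmFit, eBayes with trend, two-sided, R 4.3.3) over the 33727 genes above 0, with all 16 libraries in 8 groups of genotype and diet class, or 11 groups of genotype and diet for single diets. Tables were handled with pandas 2.3.3 in Python 3.11.15. Named were the 12 largest separated differences in each direction, the limma calls of the obesity comparison, up to 4 separated members of each list, the 6 largest opposite differences in each direction, and the genes of the study. Other genes, such as further list members, single-diet calls, and genes apart between the NOR libraries, were chosen after their values were seen. The members and lists were chosen with earlier results of these data known. Alternatives changed the pseudocount (0.1), the filter (1 or 10 FPKM), the scaling, the groups, and left out each WT library.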

Additional observations from a re-analysis of the deposited data

Results flagged for a closer look

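The number of genes called for the WT diet effect against the transgenic types was 16, which stands here because the difference between kinds of fish was tested directly and passed for these genes. All had a mean under 1 FPKM, none has a symbol, and 0 were called when genes averaging 1 FPKM or more were fitted alone (606 of 12319 at an unadjusted p under 0.05 from limma).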

How the results depend on the processing

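No paired analysis was possible because the DIO and FAT libraries of WT fish carry no replicate number that they share with a NOR library in the labels. Genes averaging 1 FPKM or more numbered 12319, and those averaging 10 FPKM or more over the 16 libraries numbered 4755. Fits of genes averaging 1 FPKM or more called 0 genes for obesity against NOR, 3 for DIO, 6 for FAT, 5 for FAT against DIO, and 0 for WT against the transgenic types, and fits of genes averaging 10 FPKM or more called 0 in each, where 115, 157, 240, 337, and 203 genes had an unadjusted p under 0.05 from limma. Quantile normalization gave 43 calls for obesity, 674 for DIO, and 29 for WT against the transgenic types. The fit of 11 groups gave 786 calls for obesity, and WT libraries alone gave 0 (512 at an unadjusted p under 0.05). With each WT library left out, calls ranged from 432 to 798 for obesity and from 375 to 765 for WT against the transgenic types. With either NOR library left out, they ranged from 1218 to 1322 for DIO, from 1632 to 1759 for FAT, and from 1526 to 1537 for FAT against DIO. Of genes averaging 1 FPKM or more, 561 were 2-fold higher and 344 lower without overlap, 1441 had FAT above and DIO below NOR, and 373 the reverse. Leaving out a library gave 227 to 749 higher and 345 to 559 lower genes, and leaving out a NOR library 1058 to 1187 and 325 to 448 opposite genes, where fewer libraries had to separate by construction. Opposite genes numbered 408 (FAT high) after quantile normalization, and 207 and 323 (DIO high) after scaling to a common sum and quantile normalization. Among 1208 values of named genes under an alternative, 1125 kept direction and call, 55 lost a call, 4 gained one, and 24 changed direction, in 16 genes, none of them called. With each library left out, obesity minus NOR ranged from -0.80 to 2.11 in acat2, -1.24 to 1.1 in agpat2 (0.038 after scaling to a common sum), -1.92 to 0.008 in agpat4, -0.19 to 0.87 in aldh2.1, -0.35 to 1.05 in aldh7a1, -0.14 to 0.039 in cdk1, -2.62 to 0.011 in dkc1, -0.99 to 1.44 in fdft1, -0.31 to 2.97 in gys1, -0.12 to 3.46 in hkdc1, -0.35 to 0.63 in hmgcra, -1.50 to 0.31 in nop56, -0.59 to 0.41 in pik3cd, -0.15 to 0.16 in plcb3 (-0.01 after quantile normalization), -0.16 to 1.64 in pparg, and -0.56 to 2.59 in sqlea. The cause of these changes was not tested. The FPKM carry no read counts, so what depth limits could not be measured.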
